A study of Mus musculus with 12 samples.

Results

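The Schlafen genes are a mouse family known from the immune system, and 6 of them, Slfn1, Slfn2, Slfn3, Slfn5, Slfn8 and Slfn9, were followed by gene symbol among the 17203 genes listed for primary CD4+ T cells. All 12 libraries came from cells of C57BL/6 mice, in 4 groups of 3. CD3_CD28_ICOS cells were stimulated for 72 h with soluble antibodies to CD3, CD28 and ICOS. CD3_CD28 cells received plate-bound anti-CD3 with soluble anti-CD28 for 72 h, and CD3 cells received plate-bound anti-CD3 alone for 72 h. Unstimulated cells were taken fresh, without activation. These treatments are those of the sample labels, whereas the text on the whole series speaks of transduced cells, and the labels name no transduction. Anti-CD3 engages the T cell receptor complex, and CD28 and ICOS are costimulatory receptors. Anti-CD3 was soluble in the ICOS group and plate-bound in the other stimulated groups, so the added anti-ICOS and the format of anti-CD3 cannot be told apart here. Culture and stimulation likewise cannot be told apart in the comparisons with fresh cells. Whether replicates are separate mice or cultures is not in the labels, and every p-value below rests on the spread among libraries that may be technical repeats.

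As background, the family takes its name from the German word for sleeping, because Slfn1 slowed thymocyte growth when forced on in mice. The proteins fall into short members (Slfn1 and Slfn2), a middle-length group that includes Slfn3, and long members (Slfn5, Slfn8 and Slfn9), which carry a helicase-like region at their C-terminal end. Slfn2 is needed for T cells to stay quiescent in mice and protects transfer RNAs from cleavage by angiogenin. Several members are induced by interferon.

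The genes lie together on chromosome 11 in build mm10 (GRCm38), in a stretch of 335 kb that holds 8 listed Schlafen genes, and all 6 followed here are protein coding in GENCODE release M21. From low to high coordinate, Slfn5 occupies chr11:82951349-82964840 on the plus strand, Slfn9 chr11:82978390-82991830 on the minus strand and Slfn8 chr11:83002158-83020810 on the minus strand. Slfn2 occupies chr11:83065112-83070678, Slfn1 chr11:83116849-83122670 and Slfn3 chr11:83191330-83215154, all on the plus strand. Slfn8 and Slfn9 have coding sequences of 2730 bases each that are 92.7% identical. Slfn1 and Slfn2 are 71.9% identical over 1002 aligned coding bases. Of all 50-base stretches of exon sequence, 14.6% of those in Slfn8, 11.2% in Slfn9, 7.39% in Slfn3, 4.27% in Slfn2 and 0.606% in Slfn1 also occur in another Schlafen gene, and none of those in Slfn5 do. All such stretches of Slfn3 are shared with Slfn4, which is not analysed here. How reads from such stretches were assigned is not given in the sources used here, so the levels of Slfn8, Slfn9 and Slfn3 are the least certain. Slfn2 and Slfn5 also overlap antisense genes (Gm20234 and Slfn5os), and use of strand in counting is not given.

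The start regions of Slfn8 and Slfn9 are shown because these adjoining, closely alike genes went opposite ways after stimulation, and that of Slfn5 because it shares an interferon-response type motif with them. Each window runs from 250 bases before to 50 bases after a RefSeq transcript start in GRCm38.p6 and is written in the direction of transcription. Capitals mark matches to the core of the interferon-stimulated response element (GAAA, any 2 bases, GAAA) or of the NFAT site (GGAAAA), on either strand.
Slfn8, chr11:83020761-83021060, minus strand: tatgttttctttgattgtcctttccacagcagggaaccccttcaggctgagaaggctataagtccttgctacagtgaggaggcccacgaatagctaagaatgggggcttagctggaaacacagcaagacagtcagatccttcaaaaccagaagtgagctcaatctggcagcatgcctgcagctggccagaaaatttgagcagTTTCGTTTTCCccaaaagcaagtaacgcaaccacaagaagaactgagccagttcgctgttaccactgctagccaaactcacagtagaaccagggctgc
Slfn9, chr11:82991781-82992080, minus strand: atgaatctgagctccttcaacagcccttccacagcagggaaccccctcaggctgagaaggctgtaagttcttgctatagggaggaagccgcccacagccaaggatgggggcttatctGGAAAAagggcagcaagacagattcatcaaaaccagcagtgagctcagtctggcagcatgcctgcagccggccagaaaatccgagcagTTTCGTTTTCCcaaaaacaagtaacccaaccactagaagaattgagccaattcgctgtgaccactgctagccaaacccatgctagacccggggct
Slfn5, chr11:82951852-82952151, plus strand: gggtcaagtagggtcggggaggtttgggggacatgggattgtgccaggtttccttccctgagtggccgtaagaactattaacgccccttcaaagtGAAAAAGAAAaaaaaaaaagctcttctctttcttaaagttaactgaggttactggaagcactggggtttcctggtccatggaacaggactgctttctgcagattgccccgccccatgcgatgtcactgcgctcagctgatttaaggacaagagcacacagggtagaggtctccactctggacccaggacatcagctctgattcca
The Slfn8 and Slfn9 windows align over 273 bases with 88.3% identity, and both hold TTTCGTTTTC, the interferon-type core on the opposite strand, 48 bases before the start in Slfn8 and 45 bases before it in Slfn9. In each of these windows an NFAT core overlaps that match by all but its last base, and Slfn9 has a further NFAT core 133 bases before its start. Slfn5 holds GAAAAAGAAA 155 bases before its start. The windows of Slfn1, Slfn2 and Slfn3 hold neither core, nor the GAS (TTCNNNGAA), AP-1 (TGANTCA) or FOXO (GTAAACA) letters. Among 32851 RefSeq start windows of this length, 3.44% hold the interferon-type core, 23.4% the NFAT core, 8.30% the GAS, 7.81% the AP-1 and 3.65% the FOXO letters. Slfn8 has a further RefSeq start whose overlapping window is not shown, and the Slfn5 start used lies downstream of the gene start given above. A match is a description of letters only, and binding was not measured.

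Levels are in CPM, the reads of a gene scaled to the same total of 1e6 assigned reads in each library. Differences were tested with limma on log2(CPM + 1) over the 9826 genes that reached 10 CPM in 3 or more libraries, with p-values adjusted over all of them in each comparison and a threshold of 0.05; fold changes on this scale understate changes of low genes. All 6 members passed the filter, Slfn3 through its stimulated libraries, since it stood at 5.33 to 5.51 CPM in unstimulated cells. In these libraries 1 assigned read was worth an estimated 0.0267 to 0.0879 CPM, and the lowest member value, of Slfn3, rested on about 119.9 reads. Cd4 averaged 1087 CPM in CD3_CD28_ICOS cells, 980.1 in CD3_CD28 cells, 565 in CD3 cells and 1142 in unstimulated cells. Cd3e averaged 399.9, 204, 389 and 529 CPM in the same order of groups. Of 10 CD4 T cell markers, 8 rose and none fell in CD3_CD28_ICOS against CD3_CD28 cells (median log2 change 0.51, beside 0.13 over all genes). In CD3_CD28 against unstimulated cells 2 of them rose and 6 fell (median -0.67, beside -0.04). Of all genes tested, 38.5% were called higher in the first comparison and 39.1% lower in the second. A ribosomal RNA sequence (CT010467.1) took 11.8% of CD3_CD28 replicate 1, against 3.20% at most in any other library. In bulk RNA, fewer cells of a type and less RNA per cell cannot be told apart.

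The main pattern was a split of the family. Slfn1, Slfn2, Slfn5 and Slfn8 were abundant in unstimulated cells, fell under CD3 and CD3_CD28 stimulation, and were higher in CD3_CD28_ICOS cells than under either of those stimuli. Slfn3 and Slfn9 were low in unstimulated cells and rose under all 3 stimuli.

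**Figure D1:**
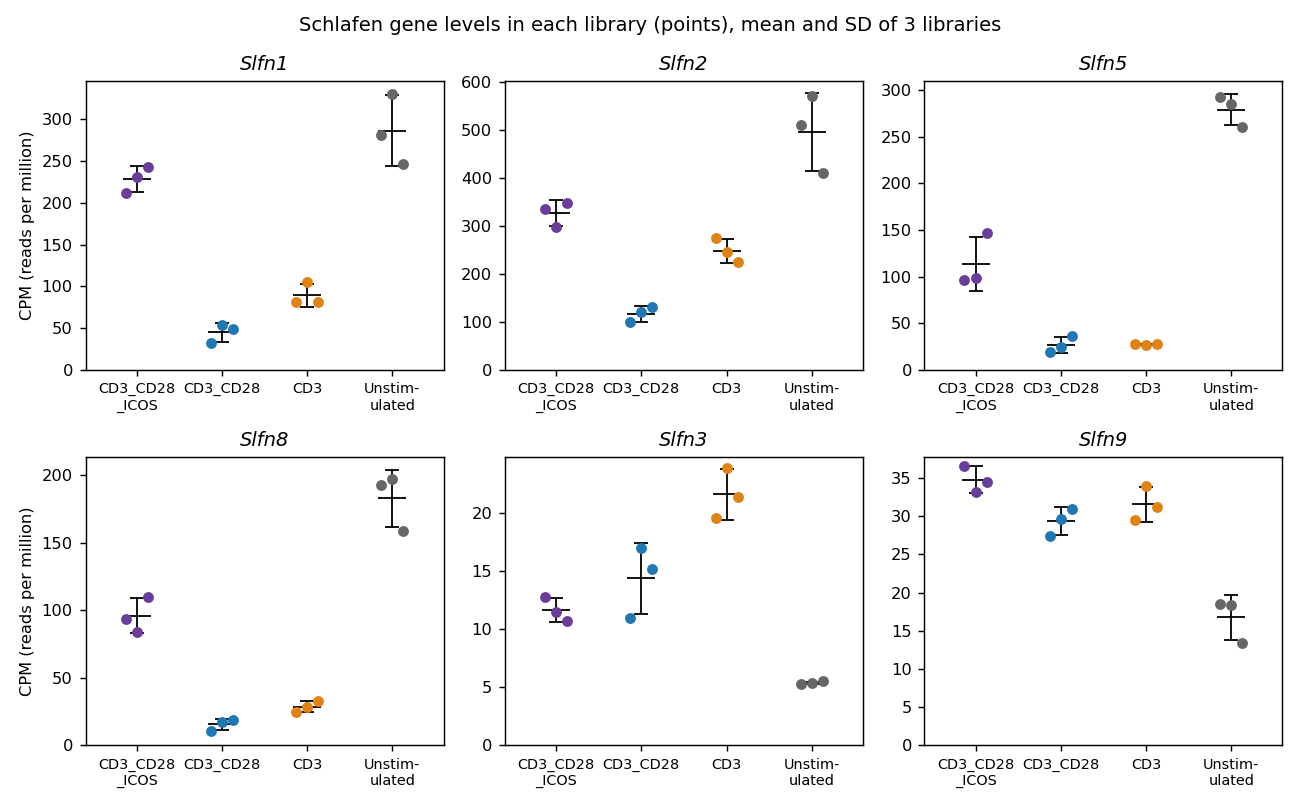
Levels of the 6 Schlafen genes in CPM (vertical axes, each starting at 0) in the 4 groups; points are single libraries, and bars are the mean and SD of 3. Slfn5 and Slfn8 stood at 36.0 CPM or less in every CD3_CD28 and CD3 library and at 84.1 CPM or more in every CD3_CD28_ICOS and unstimulated library, while Slfn3 and Slfn9 were lowest in unstimulated cells.

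Of the short members, Slfn1, the gene for which the family was named, stood at 212, 231 and 243 CPM in CD3_CD28_ICOS libraries, 31.8, 53.3 and 49.3 in CD3_CD28 libraries, 81.2, 105 and 81.6 in CD3 libraries and 282, 331 and 246 in unstimulated libraries. The 4 groups did not overlap, although the highest CD3_CD28_ICOS and lowest unstimulated libraries were close. Slfn1 fell by 1.67 ± 0.17 on the log2 scale in CD3 against unstimulated cells (SE; limma adjusted p = 1.89e-06). It fell by 2.67 ± 0.17 in CD3_CD28 against unstimulated cells (limma adjusted p = 1.59e-08). CD3_CD28 cells were lower than CD3 cells, by a log2 change of -1.002 (limma adjusted p = 0.000301). The level in CD3_CD28_ICOS cells was 2.36 higher on the log2 scale than in CD3_CD28 cells (limma adjusted p = 1.81e-07), a ratio of means of 5.10, and 1.36 higher than in CD3 cells (limma adjusted p = 6.45e-05). Against unstimulated cells the change in CD3_CD28_ICOS cells was -0.32 ± 0.17 and did not pass (limma adjusted p = 0.136). The same comparison passed without CD3_CD28 replicate 1, which enters that fit through the shared spread (limma adjusted p = 0.0413), in a fit of the 6 libraries compared (limma adjusted p = 0.0428) and under both other scalings (limma adjusted p = 0.0339 after quantile and 0.0253 after median-of-ratios scaling).

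Slfn2, the quiescence and tRNA-protecting member, had the highest level per kb of exon sequence of the 6 genes in every library. It stood at 336, 298 and 349 CPM in CD3_CD28_ICOS libraries, 98.9, 119.7 and 131 in CD3_CD28 libraries, 275, 246 and 225 in CD3 libraries and 511, 571 and 409.8 in unstimulated libraries. No library of 1 group lay within the range of another. The mean in CD3_CD28 cells was 23.4% of the unstimulated mean. Slfn2 fell by 0.99 ± 0.13 (log2, SE) in CD3 against unstimulated cells (limma adjusted p = 1.33e-05) and by 2.08 ± 0.13 in CD3_CD28 against unstimulated cells (limma adjusted p = 6.39e-09). It was lower in CD3_CD28 than in CD3 cells, by a log2 change of -1.09 (limma adjusted p = 1.27e-05). In CD3_CD28_ICOS cells it was 1.49 higher than in CD3_CD28 cells (limma adjusted p = 4.91e-07) and, by a log2 change of -0.59, lower than in unstimulated cells (limma adjusted p = 0.00153). The change in CD3_CD28_ICOS against CD3 cells was the smallest called for this gene, 0.40 ± 0.13 (limma adjusted p = 0.0233). That call was lost without CD3 replicate 2 (limma adjusted p = 0.0599), CD3 replicate 3 (0.0929), CD3_CD28_ICOS replicate 1 (0.0550) or CD3_CD28_ICOS replicate 3 (0.0860).

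Of the long members, Slfn5 is known in human cells as a co-repressor of interferon-driven transcription. It stood at 95.9, 97.9 and 147 CPM in CD3_CD28_ICOS libraries, 19.4, 24.7 and 36.0 in CD3_CD28 libraries, 27.6, 26.5 and 27.4 in CD3 libraries and 292, 285 and 260.1 in unstimulated libraries. The CD3_CD28 range enclosed the CD3 values, and the other groups stood apart from both and from each other. Slfn5 fell by 3.31 ± 0.19 (log2, SE) in CD3 against unstimulated cells (limma adjusted p = 9.02e-09), the 75th lowest change of the 9826 genes tested. It fell by 3.38 ± 0.19 in CD3_CD28 against unstimulated cells (limma adjusted p = 5.9e-09), where the mean was 9.56% of the unstimulated one. Adding anti-CD28 to anti-CD3 gave a change of -0.07 ± 0.19, which did not pass (limma adjusted p = 0.768) and whose sign turned with the scaling. In CD3_CD28_ICOS cells Slfn5 was 2.00 higher than in CD3 cells (limma adjusted p = 9.26e-06), the 38th highest change of all genes tested, and 2.06 higher than in CD3_CD28 cells (limma adjusted p = 1.44e-06). It remained below unstimulated cells, with a log2 change of -1.32 (limma adjusted p = 7.54e-05), and had the lowest percentage of its unstimulated mean in this group, 40.7%, of the 6 genes.

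Slfn8, whose forced expression is known to reduce T cell proliferation in mice, stood at 93.8, 84.1 and 109.9 CPM in CD3_CD28_ICOS libraries, 10.6, 17.3 and 18.7 in CD3_CD28 libraries, 24.6, 28.6 and 32.6 in CD3 libraries and 193, 197 and 158 in unstimulated libraries. All 4 groups stood apart. It fell by 3.50 ± 0.18 (log2, SE) in CD3_CD28 against unstimulated cells (limma adjusted p = 2.19e-09), which left 8.50% of the unstimulated mean. It fell by 2.64 ± 0.18 in CD3 against unstimulated cells (limma adjusted p = 3.46e-08). CD3_CD28 cells were lower than CD3 cells, by a log2 change of -0.87 (limma adjusted p = 0.00115). Slfn8 had the highest ratio of CD3_CD28_ICOS to CD3_CD28 means among the 6 genes, 6.17, with a log2 change of 2.58 ± 0.18 (limma adjusted p = 1.23e-07). It was 1.71 higher in CD3_CD28_ICOS than in CD3 cells (limma adjusted p = 1.67e-05) and had a log2 change of -0.92 against unstimulated cells (limma adjusted p = 0.000717).

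Slfn9, the close copy of Slfn8, went the other way. It stood at 36.6, 33.1 and 34.5 CPM in CD3_CD28_ICOS libraries, 27.4, 29.6 and 31.0 in CD3_CD28 libraries, 29.5, 34.0 and 31.1 in CD3 libraries and 18.5, 18.3 and 13.4 in unstimulated libraries. Every stimulated library lay above every unstimulated one, and the stimulated groups lay close to each other. Slfn9 rose by 1.02 ± 0.12 (log2, SE) in CD3_CD28_ICOS (limma adjusted p = 8.14e-06), 0.79 ± 0.12 in CD3_CD28 (limma adjusted p = 4.82e-05) and 0.89 ± 0.12 in CD3 cells (limma adjusted p = 1.94e-05), each against unstimulated cells. Among the stimulated groups no difference passed, with log2 changes of 0.24 ± 0.12 in CD3_CD28_ICOS against CD3_CD28 cells (limma adjusted p = 0.105), 0.14 ± 0.12 in CD3_CD28_ICOS against CD3 cells (limma adjusted p = 0.386) and -0.10 ± 0.12 in CD3_CD28 against CD3 cells (limma adjusted p = 0.482). Without unstimulated replicate 3 the first of these passed (limma adjusted p = 0.0373), and after quantile scaling the second did (limma adjusted p = 0.0386).

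The ratio of Slfn8 to Slfn9 CPM shows the divergence within each library. It was 2.56, 2.54 and 3.19 in CD3_CD28_ICOS libraries, 0.389, 0.584 and 0.603 in CD3_CD28 libraries, 0.835, 0.841 and 1.05 in CD3 libraries and 10.4, 10.7 and 11.8 in unstimulated libraries. In CPM, which are not corrected for length, Slfn8 was the higher of the pair in every unstimulated and CD3_CD28_ICOS library and the lower in every CD3_CD28 library. Reads that match both genes enter these ratios in an unknown way. When the pair was added together and refitted as 1 gene, the sum fell by 1.71 ± 0.12 (log2, SE) in CD3 (limma adjusted p = 3.15e-08) and by 2.13 ± 0.12 in CD3_CD28 cells (limma adjusted p = 3.04e-09), each against unstimulated cells. The summed pair was 1.53 ± 0.12 higher in CD3_CD28_ICOS than in CD3_CD28 cells (limma adjusted p = 2.47e-07). The split of reads between the pair does not enter these sums, but reads that were dropped or assigned to another gene would. The pseudogene Slfn10-ps holds 10.1% of the 50-base stretches of Slfn8 and 8.10% of those of Slfn9, more than the 9.30% and 6.52% that Slfn8 and Slfn9 share with each other.

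Slfn3, which has been studied mainly in rat gut epithelium, stood at 12.8, 11.5 and 10.7 CPM in CD3_CD28_ICOS libraries, 11.01, 17.0 and 15.2 in CD3_CD28 libraries, 19.6, 24.0 and 21.4 in CD3 libraries and 5.33, 5.38 and 5.51 in unstimulated libraries. CD3 libraries were the highest and unstimulated ones the lowest, and CD3_CD28_ICOS and CD3_CD28 libraries overlapped. Slfn3 rose by 1.82 ± 0.15 (log2, SE) in CD3 (limma adjusted p = 1.15e-07), 1.25 ± 0.15 in CD3_CD28 (limma adjusted p = 3.99e-06) and 0.98 ± 0.15 in CD3_CD28_ICOS cells (limma adjusted p = 7.54e-05), each against unstimulated cells. It was lower in CD3_CD28 than in CD3 cells, by -0.57 ± 0.15 (limma adjusted p = 0.00459), and in CD3_CD28_ICOS than in CD3 cells, by -0.83 ± 0.15 (limma adjusted p = 0.000565). The difference of CD3_CD28_ICOS from CD3_CD28 cells was -0.26 ± 0.15 (limma adjusted p = 0.143), and it passed without CD3_CD28 replicate 1 (limma adjusted p = 0.0150) and after both other scalings (limma adjusted p = 0.0310 after quantile and 0.0163 after median-of-ratios scaling). In the limma fit, Slfn3 was the 1 member of the 6 called lower in CD3_CD28_ICOS than in CD3 cells.

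Of the other Schlafen genes, the pseudogene Slfn10-ps averaged 25.5 ± 3.04 CPM in CD3_CD28_ICOS, 23.4 ± 0.871 in CD3_CD28, 16.2 ± 2.07 in CD3 and 20.4 ± 3.20 in unstimulated cells (SD, n = 3 each). It was called against CD3 cells, where it rose by 0.62 ± 0.13 (log2, SE) in CD3_CD28_ICOS cells (limma adjusted p = 0.00195) and by 0.51 ± 0.13 in CD3_CD28 cells (limma adjusted p = 0.00494). Slfn14 was listed at 0 in all 9 stimulated libraries and at 0.577, 0.146 and 0.304 CPM in unstimulated libraries, at most about 12.99 reads. Slfn4 and Slfnl1 were not among the genes listed under those symbols, so they were not analysed here.

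**Figure D2:**
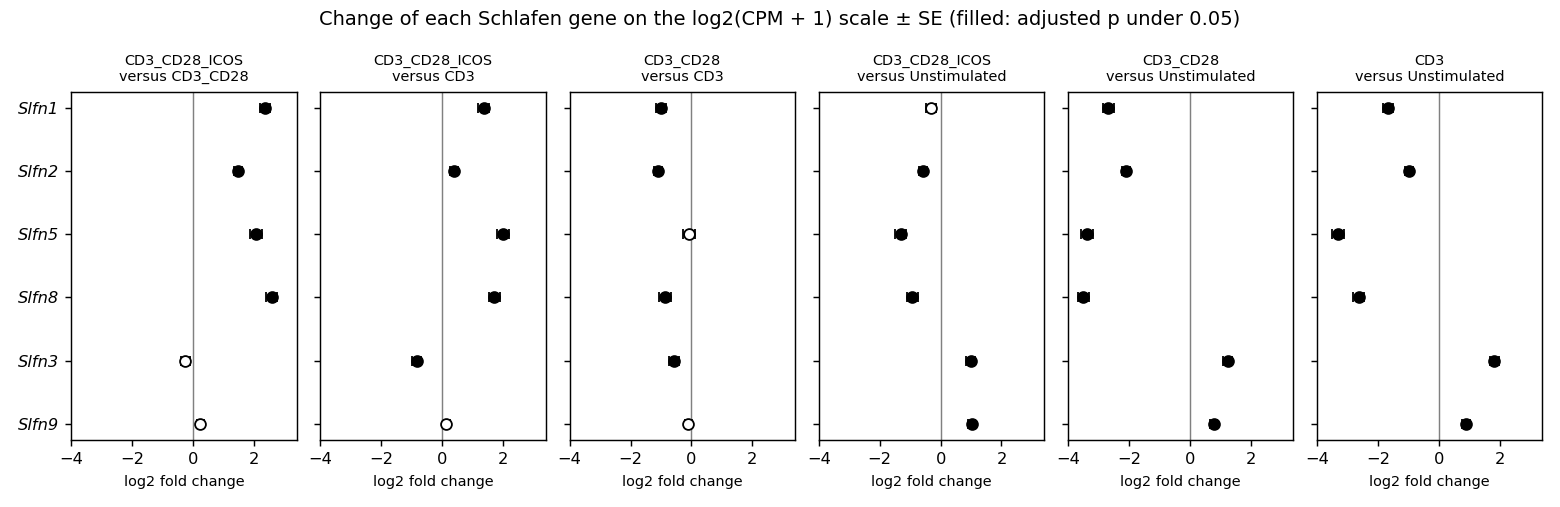
Log2 fold change of each Schlafen gene in the 6 comparisons on the log2(CPM + 1) scale (horizontal axes), with SE bars; filled points have a limma adjusted p under 0.05 and open points do not. Slfn1, Slfn2, Slfn5 and Slfn8 lie right of 0 for CD3_CD28_ICOS against CD3_CD28 and left of 0 for CD3_CD28 against unstimulated cells, and Slfn3 and Slfn9 lie right of 0 in all 3 comparisons with unstimulated cells.

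Read over the comparisons, many genes of the whole table changed too, so the counts of members stand beside that background. In CD3 against unstimulated cells 2 members rose and 4 fell, where 69.8% of all tested genes were called, 43.6% higher and 26.3% lower. In CD3_CD28 against unstimulated cells 2 rose and 4 fell, with 75.2% of all genes called, 36.1% higher and 39.1% lower. In CD3_CD28_ICOS against unstimulated cells 2 rose, 3 fell and 1 did not pass, with 59.4% of genes called, 35.6% higher and 23.7% lower. The values of all 6 members did not overlap in any of these comparisons with unstimulated cells, as held for 76.9% of genes in CD3, 76.7% in CD3_CD28 and 64.5% in CD3_CD28_ICOS cells. In CD3_CD28 against CD3 cells none rose and 4 fell, with 64.4% of genes called, 18.7% higher and 45.7% lower. In CD3_CD28_ICOS against CD3_CD28 cells 4 rose and none fell, where 63% of genes were called, 38.5% higher and 24.5% lower. In CD3_CD28_ICOS against CD3 cells 4 rose, 1 fell and 1 did not pass, with 47.7% called, 18.9% higher and 28.7% lower. Of the 6 members, 4 did not overlap between CD3_CD28 and CD3 cells, beside 72.4% of all genes, 5 did not between CD3_CD28_ICOS and CD3_CD28 cells, beside 64.8%, and 5 did not between CD3_CD28_ICOS and CD3 cells, beside 58.5%. With shares of this size over all genes, a count of members called says little by itself, and the sizes of the changes are given beside it. The members' median log2 change was -2.38 in CD3_CD28 against unstimulated cells, beside -0.04 over all genes tested, and 1.78 in CD3_CD28_ICOS against CD3_CD28 cells, beside 0.13. Between CD3_CD28_ICOS and CD3 cells it was 0.88, beside -0.07. Comparisons that use the same group share its libraries and are not independent of each other.

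Expressed per length of exon sequence, levels can be compared roughly between genes. The length joins the exons of all annotated transcripts, 1 each for Slfn1 and Slfn2, 3 each for Slfn3 and Slfn9, 4 for Slfn5 and 6 for Slfn8. Which transcripts were in use is not known, and shared stretches were not corrected for, so small differences between genes are uncertain. Slfn2 averaged 197 CPM per kb in CD3_CD28_ICOS, 69.95 in CD3_CD28, 149 in CD3 and 299 in unstimulated cells, the highest of the 6 in each group. Slfn1 followed in each, with 123, 24.0, 47.9 and 154 CPM per kb in CD3_CD28_ICOS, CD3_CD28, CD3 and unstimulated cells. Slfn5 and Slfn8 were near each other, at 18.0 and 23.5 CPM per kb in CD3_CD28_ICOS cells, 4.22 and 3.80 in CD3_CD28 cells, 4.30 and 6.99 in CD3 cells and 44.1 and 44.7 in unstimulated cells. In CD3_CD28 cells Slfn5, Slfn8, Slfn3 and Slfn9 all lay between 3.80 and 4.92 CPM per kb, whereas in unstimulated cells Slfn3, at 1.58, and Slfn9, at 2.81, were far below Slfn5 and Slfn8.

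The summed level of the 6 genes was 755 to 894 CPM in CD3_CD28_ICOS libraries, 199 to 281 in CD3_CD28 libraries, 419 to 464 in CD3 libraries and 1094 to 1408 in unstimulated libraries, so no groups overlapped. The make-up of that sum, in CPM not corrected for length, differed as well. Slfn5 made up 12.2 to 16.5% of it in CD3_CD28_ICOS, 9.44 to 12.8% in CD3_CD28, 5.71 to 6.55% in CD3 and 20.2 to 23.8% in unstimulated libraries. Slfn2 made up 39.0 to 42.6% in CD3_CD28_ICOS, 45.7 to 49.7% in CD3_CD28, 53.0 to 60.1% in CD3 and 37.5 to 40.6% in unstimulated libraries. Slfn9 reached 11.04 to 13.7% in CD3_CD28 libraries, against 1.22 to 1.42% in unstimulated ones.

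**Figure D3:**
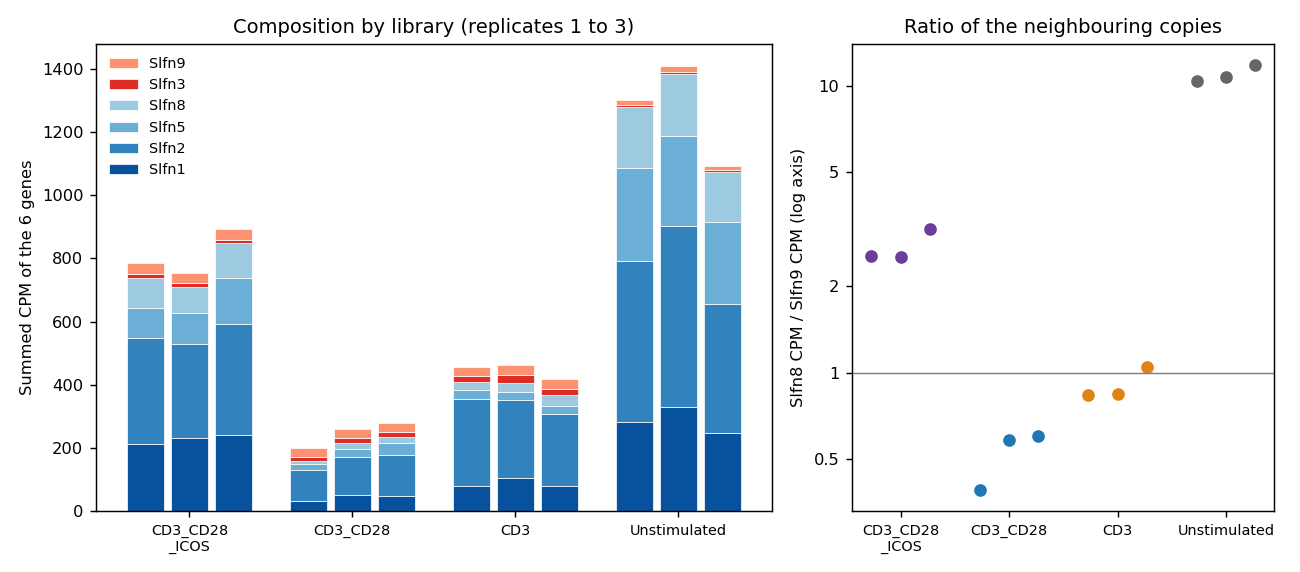
Left, summed CPM of the 6 Schlafen genes in each library (replicates 1 to 3 of each group), divided by gene; right, Slfn8 CPM over Slfn9 CPM in each library on a log axis, with a line at 1. The sum was lowest in CD3_CD28 libraries (199 to 281 CPM), and the ratio fell below 1 in all 3 of them (0.389 to 0.603) and stood above 10 in unstimulated libraries (10.4 to 11.8).

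The chromosomal neighbours changed less than Slfn1, Slfn2, Slfn5 and Slfn8 in the comparisons plotted along the cluster. Those genes were grouped by their changes in the same data. Slfn3 (-0.26) and Slfn9 (0.24) changed less than Ccl5 in CD3_CD28_ICOS against CD3_CD28 cells. Slfn9 (0.79) changed less than Gm11427 in CD3_CD28 against unstimulated cells. In the other comparisons some neighbours changed more than the weaker of Slfn1, Slfn2, Slfn5 and Slfn8. In CD3 against unstimulated cells Gm11427 changed by 1.09 and Slfn2 by -0.99. In CD3_CD28_ICOS against unstimulated cells Taf15 changed by -0.70 and Slfn2 by -0.59. In CD3_CD28_ICOS against CD3 cells Nle1 changed by -0.83 and Slfn2 by 0.40, while Slfn5 (2.00), Slfn8 (1.71) and Slfn1 (1.36) changed more than any neighbour. In CD3_CD28 against CD3 cells Ccl5 changed by 0.54 and Slfn5 by -0.07, neither called. Within 300 kb of the cluster 20 other genes were listed and 11 passed the filter. In CD3_CD28_ICOS against CD3_CD28 cells, none of the 11 rose, 5 fell and 6 did not pass, with log2 changes from -0.92 (Ccl5, a chemokine) to 0.20 (Zfp830). Of all genes tested, 38.5% were called higher and 24.5% lower there. In CD3_CD28 against unstimulated cells 2 rose, 2 fell and 7 did not pass, from -0.60 (Zfp830) to 1.16 (Gm11427), beside 36.1% of all genes called higher and 39.1% lower. Gm11427, near Slfn3, was called higher in every stimulated group than in unstimulated cells, with log2 changes of 0.89 in CD3_CD28_ICOS, 1.16 in CD3_CD28 and 1.09 in CD3 cells. AI662270, which starts nearer to Slfn3, was called higher only in CD3 cells (0.58). Its changes of 0.12 in CD3_CD28_ICOS and 0.07 in CD3_CD28 cells did not pass.

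**Figure D4:**
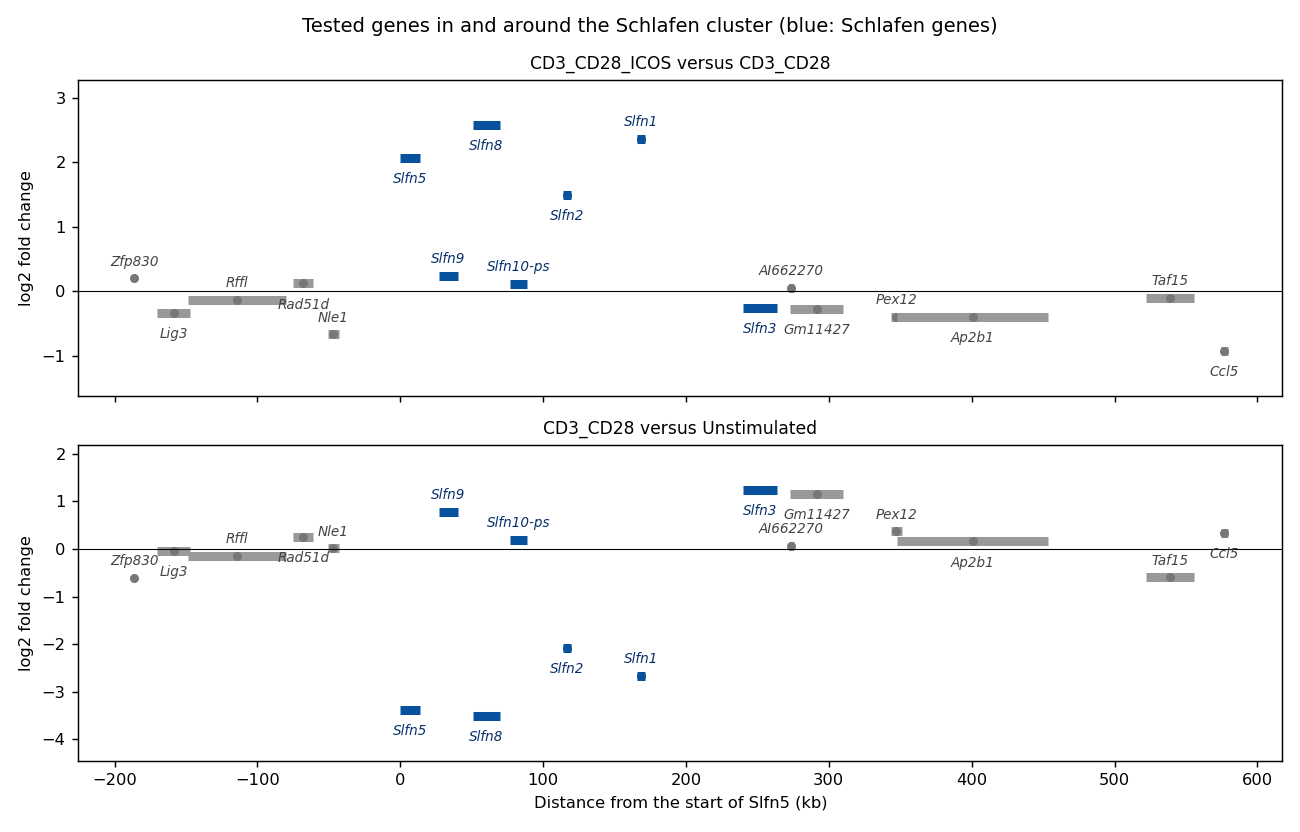
Log2 fold change (vertical axes) of the tested genes in and around the Schlafen cluster against distance from the start of Slfn5 in kb; horizontal bars span each gene, blue for Schlafen genes and grey for neighbours. Slfn5, Slfn8, Slfn2 and Slfn1 stand between 1.49 and 2.58 in CD3_CD28_ICOS against CD3_CD28 cells and between -3.50 and -2.08 in CD3_CD28 against unstimulated cells, while Slfn9 and the pseudogene Slfn10-ps, which lie among them, do not.

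The genes whose centred log2 levels were most like each member over the 12 libraries were found by root-mean-square difference. For Slfn1 they were Shld1 (0.176), Rasa3 (0.189) and Tcf7 (0.191), the last a transcription factor of naive T cells, which averaged 1892 CPM in CD3_CD28_ICOS, 409 in CD3_CD28, 759.7 in CD3 and 2272 in unstimulated cells. For Slfn8 they were S1pr1 (0.242), Card6 (0.252) and Cd1d1 (0.259). S1pr1, the receptor that lets T cells leave lymphoid organs, averaged 387 CPM in CD3_CD28_ICOS, 45.1 in CD3_CD28, 100.4 in CD3 and 656 in unstimulated cells. For Slfn2 they were Snx19 (0.138), Zfp943 (0.148) and Limd2 (0.149), and for Slfn5 Pglyrp2 (0.295), Selenop (0.320) and Mylip (0.339). Slfn3 was most like Gng12 (0.112), Cdca7l (0.140) and the DNA polymerase subunit gene Pold3 (0.146), and Slfn9 most like Tmem101 (0.120), Cpt2 (0.124) and Tmbim4 (0.124). Between members the measure was 0.351 for Slfn5 and Slfn8, 0.398 for Slfn1 and Slfn8 and 0.430 for Slfn1 and Slfn2, but 1.65 for Slfn8 and its copy Slfn9. All of these values rest on the same 12 libraries.

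Genes of pathways tied to the family were counted for context. Of 27 tested interferon-response genes, 19 rose and 2 fell in CD3_CD28_ICOS against CD3_CD28 cells (median log2 change 1.33, beside 0.13 over all genes). In CD3_CD28 against CD3 cells 3 rose and 16 fell (median -0.93, beside -0.24, with 18.7% of all genes called higher and 45.7% lower). In CD3 against unstimulated cells, where Slfn1, Slfn2, Slfn5 and Slfn8 fell, 9 of the 27 rose and 11 fell (median -0.29, beside 0.18). Of all genes, 43.6% were called higher and 26.3% lower there. Between CD3_CD28_ICOS and CD3 cells, where those Schlafen genes rose, 8 of the 27 rose and 6 fell (median 0.24, beside -0.07). The shares of all genes there were 18.9% higher and 28.7% lower. Ifit1bl1 averaged 133 ± 37.9 CPM in CD3_CD28_ICOS cells and 1.56 ± 0.916 in CD3_CD28 cells (SD, n = 3 each). Gbp2, an interferon-induced GTPase, went opposite to Slfn5 and Slfn8 in CD3 against unstimulated cells, where it rose by 3.82 ± 0.14 (log2, SE; limma adjusted p = 1.15e-10). Of 14 interferon receptor and transducer genes, 9 rose and 2 fell in CD3_CD28_ICOS against CD3_CD28 cells (median log2 change 0.61, beside 0.13 over all genes), where 38.5% of all genes were called higher and 24.5% lower.

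Of 22 naive-cell and quiescence genes, 19 rose and 1 fell in CD3_CD28_ICOS against CD3_CD28 cells (median 0.80, beside 0.13 over all genes, with 38.5% called higher). In CD3_CD28_ICOS against CD3 cells 17 rose and none fell (median 0.79, beside -0.07, with 18.9% of all genes called higher). In CD3_CD28 against unstimulated cells 1 rose and 18 fell (median -1.37, beside -0.04, with 39.1% called lower). In CD3_CD28 against CD3 cells, where Slfn1, Slfn2 and Slfn8 fell, 3 rose and 11 fell. The list median there was -0.18, beside -0.24 over all genes, with 45.7% called lower. Klf2, a quiescence factor, averaged 161 ± 23.1 CPM in CD3_CD28_ICOS cells and 21.7 ± 5.17 in CD3_CD28 cells (SD, n = 3 each). Il7r, the interleukin-7 receptor gene, was the 1 of the 22 that fell in CD3_CD28_ICOS against CD3_CD28 cells, by 0.91 ± 0.25 (log2, SE; limma adjusted p = 0.0067). Of 24 proliferation genes, 23 rose and none fell in CD3_CD28_ICOS against unstimulated cells (median 3.08, beside 0.08 over all genes, with 35.6% called higher). In CD3_CD28 against unstimulated cells 23 rose and none fell (median 3.24, beside -0.04, with 36.1% of all genes called higher). All 24 rose in CD3 against unstimulated cells (median 4.28, beside 0.18, with 43.6% of all genes called higher). Their summed level was 3083 to 4429 CPM in CD3_CD28_ICOS, 2865 to 4402 in CD3_CD28, 6782 to 7603 in CD3 and 614 to 703 in unstimulated libraries. In CD3_CD28 against CD3 cells none of them rose and 22 fell (median -1.03, beside -0.24 over all genes, with 45.7% called lower). In CD3_CD28_ICOS against CD3 cells none rose and 20 fell (median -1.08, beside -0.07, with 28.7% of all genes called lower). In CD3_CD28_ICOS against CD3_CD28 cells 4 rose and 2 fell (median -0.13, beside 0.13, with 38.5% called higher and 24.5% lower). Of 14 tested genes of tRNA cleavage and protection, the process Slfn2 is known for, 2 rose and 5 fell in CD3_CD28_ICOS against CD3_CD28 cells (median -0.07, beside 0.13 over all genes). In CD3 against unstimulated cells 6 of these 14 rose and none fell (median 0.27, beside 0.18), with 43.6% of all genes called higher, so the share that rose was near that of all genes. Of 12 integrated stress response genes, 2 rose and 7 fell in CD3_CD28_ICOS against CD3_CD28 cells (median -0.68, beside 0.13), with 38.5% of all genes called higher and 24.5% lower.

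Markers of other cells moved with the groups. The summed level of 8 B cell markers was 208 to 627 CPM in CD3_CD28_ICOS libraries, 7.52 to 11.6 in CD3_CD28 libraries, 306 to 672 in CD3 libraries and 121 to 221 in unstimulated libraries, and all 8 rose in CD3_CD28_ICOS against CD3_CD28 cells. In CD3_CD28_ICOS replicates 1, 2 and 3 the B cell sum was 627, 208 and 525 CPM. In the same order Slfn1 stood at 212, 231 and 243 CPM, and Slfn2 at 336, 298 and 349. Slfn5 stood at 95.9, 97.9 and 147 CPM, and Slfn8 at 93.8, 84.1 and 109.9. Slfn2 and Slfn8 were lowest in replicate 2, and Slfn1 and Slfn5 in replicate 1. CD3 libraries had more B cell marker signal than unstimulated ones and less Slfn1, Slfn2, Slfn5 and Slfn8. CD3_CD28 libraries had less of the marker signal and of these genes than unstimulated ones. CD3_CD28_ICOS libraries had more of both than CD3_CD28 ones. Of 10 myeloid markers the sum was 18.1 to 45.5 CPM in CD3_CD28_ICOS, 15.8 to 19.6 in CD3_CD28, 38.5 to 75.4 in CD3 and 204 to 513 in unstimulated libraries. Lyz2 and S100a8 were at 0 in all CD3_CD28 libraries and Cd14 at 0 in all CD3 libraries. Of the 7 tested, 6 fell and 1, Cd68, rose in CD3_CD28 against unstimulated cells. Cd68 averaged 2.70 CPM in CD3_CD28_ICOS, 16.1 in CD3_CD28, 5.18 in CD3 and 10.7 in unstimulated cells. It made up most of the CD3_CD28 sum. Pancreatic acinar markers summed to 0.320 to 0.860 CPM in CD3_CD28_ICOS, 0.537 to 1.63 in CD3_CD28, 0.490 to 0.965 in CD3 and 395 to 2019 in unstimulated libraries. Erythroid and platelet markers summed to 1.01 to 4.75 CPM in CD3_CD28_ICOS, 0.528 to 0.862 in CD3_CD28, 1.48 to 2.46 in CD3 and 107 to 196 in unstimulated libraries. Dendritic cell markers summed to no more than 15.7 CPM in any library, and 8 CD8 and NK cell markers to 89.5 to 166 CPM in CD3_CD28_ICOS, 55.1 to 108 in CD3_CD28, 139 to 182 in CD3 and 119 to 159 in unstimulated libraries. The part of these cells in the Schlafen levels was not tested.

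The authors' deposited table of their own DESeq2 comparisons, at a false discovery rate under 0.05, called 4 of the 6 genes in its comparison of Combo_Costim with Control, 6 for PB_CD3 and 6 for PB_CD3_CD28 with Control. For Combo_Costim over PB_CD3_CD28 the authors' deposited table called 4 genes, all higher, and for Combo_Costim over PB_CD3 it called 3, all higher. The authors' deposited table gives its last comparison as PB_CD3 over PB_CD3_CD28 and called 3 genes there, all higher under PB_CD3. Slfn3 was not called in that comparison (authors' DESeq2 false discovery rate 0.499). Nor did the authors' DESeq2 call it for Combo_Costim over PB_CD3 (false discovery rate 0.325) or over Control (0.0831). Slfn2 was likewise not called for Combo_Costim over PB_CD3 (authors' DESeq2 false discovery rate 0.126). The labels do not spell out these group names, which differ from the sample titles. The share of all genes called in the authors' table was not computed here, so its counts of members say little by themselves.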

How the data were processed

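Total RNA from 12 libraries was sequenced as paired ends, per the labels' protocols. The submitters' processing notes name Partek 10, DESeq2 and build mm10. The aligner, counter, annotation and strand setting were not given in the sources used here. The deposited expression values are CPM with 1e-04 added by the authors to every value, which was removed here; each library sums to 1e6. Between 76.4 and 81.4% of values up to 1.2 CPM were whole multiples of a common step within a tolerance of 0.02 of a read, so counts were not recovered, and depth and read numbers are estimates from that step; no intervals were drawn from it. A second file holds the authors' deposited p-values and false discovery rates, log2 ratios and ratios from their DESeq2 comparisons, per the file headers. It was used for call counts and for the false discovery rates of some results not called.

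Genes that reached 10 CPM in 3 or more libraries were fitted with limma 3.58.1 (trend, robust; two-sided) in R 4.3.3 on log2(CPM + 1), with 1 mean per group over all 12 libraries and Benjamini-Hochberg adjustment over 9826 genes in each of 6 comparisons. The script was tested on simulated data. File coordinates matched GENCODE M21 genes; sequence was compared with Biopython 1.88. The other Schlafen genes, the 3 genes most like each member, genes within 300 kb, up to 4 called genes of each list and a few fixed immune genes could be named. Members and gene lists were chosen with earlier results of these data known. No column of per-sample values was left unused.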

Additional observations from a re-analysis of the deposited data

How the results depend on the processing

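Over 24 alternative settings (other filters and pseudocounts, limma without trend and robust estimation, quantile and median-of-ratios scaling, values without the ribosomal RNA gene, fits of the compared groups alone, a replicate block, libraries left out, and Slfn8 with Slfn9 summed), 29 of the 30 changes called for the members were called in the same direction wherever a value could be had; the exception was Slfn2 in CD3_CD28_ICOS against CD3 cells (log2 change 0.33 to 0.47). Among the changes not called, the sign turned for Slfn5 in CD3_CD28 against CD3 cells (0.17 after quantile scaling, 0.14 after median-of-ratios scaling, and 0.13 without CD3_CD28 replicate 1, alone or together with unstimulated replicate 3; range over single libraries left out -0.30 to 0.13) and for Slfn9 in the same comparison (0.12 after quantile and 0.11 after median-of-ratios scaling), and none of these passed. Both scalings moved the median of all genes, by 0.19 and 0.21 in CD3_CD28 against CD3 cells; the cause of the other turns was not tested. Leaving out 1 library at a time gave 6 members called for CD3 and for CD3_CD28 against unstimulated cells, 5 to 6 for CD3_CD28_ICOS against unstimulated cells, 4 for CD3_CD28 against CD3 cells, 4 to 5 for CD3_CD28_ICOS against CD3_CD28 cells and 4 to 5 for CD3_CD28_ICOS against CD3 cells. The shares of all genes called, in that order, were 64.2 to 71.3%, 71 to 76.3%, 54 to 60.6%, 56.3 to 65.9%, 55.6 to 64.4% and 37.2 to 49.4%. Without CD3_CD28 replicate 1 (high ribosomal RNA) and unstimulated replicate 3 together, a setting chosen after seeing the data, the counts of members in that order were 6, 6, 6, 4, 5 and 5. The shares of all genes there were 68.3, 72.1, 58.6, 60.1, 60.8 and 51.5%. The replicate number as a block gave member counts of 6, 6, 5, 4, 4 and 5. The shares of all genes with this block were 69.2, 74.5, 58.9, 63.7, 62.3 and 46.7%. Deviations of same-numbered libraries correlated over 0.1 in 6 of 18 pairs (from -0.0998 to 0.408, the highest between CD3 and CD3_CD28_ICOS replicates 2), against 3 of 36 pairs of different numbers. Same-numbered CD3 and CD3_CD28_ICOS libraries correlated at 0.0879, 0.408 and 0.335 (replicates 1, 2 and 3). The labels name no shared source, so the samples were not treated as paired. These correlations cannot settle whether some same-numbered libraries share a source. TMM scaling was not run, since these values are not counts. Slfn3 could not be summed with Slfn4, which was not among the genes listed. With 3 libraries a group, small differences such as those of Slfn9 among stimulated cells are limited by the spread between libraries.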
